A study of Mus musculus with 2 samples.

Results

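The genes described here are the autosomal protein-coding genes of 7 families of developmental transcription factors, the Lhx, Nkx, Pax, Tbx, Gata, Irx and sine oculis homeobox genes, chosen by the symbol of each gene in GENCODE M21 (mouse genome build mm10). The symbol pattern matched 60 autosomal genes, and Lhx2, Lhx6, Nkx2-1 and Nkx2-2 were set aside by the rule. The remaining 56 genes are the members, out of 20807 autosomal protein-coding genes. They are 12 Nkx, 12 Tbx, 9 Pax, 6 Lhx, 6 Irx, 6 sine oculis and 5 Gata genes. The assay was DNase-seq, which sequences the ends left where the nuclease DNase I can reach DNA in nuclei. The tissue was cerebral cortex of the left side from male mice of strain B6CASTF1/J, hybrids of a laboratory and a castaneus parent, aged 8 to 10 months; the labels give no treatment or mutation. The 2 libraries form 1 group, biological replicates 1 and 2, with separate biosamples but 1 shared donor identifier. If that identifier is 1 animal, every SD below leaves out variation between animals. With 1 group of 2 libraries no p-value was computed, and the counts below are descriptions set beside the same counts over all genes.

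These families act as switches of cell fate. LIM-homeodomain (Lhx), NK-homeodomain (Nkx), paired-box (Pax), sine oculis homeobox, T-box (Tbx), GATA zinc finger (Gata) and Iroquois (Irx) proteins bind DNA and set the identity of motor neurons, heart muscle, gut, blood, kidney, bone and eye. Many of their genes start in long CpG-rich stretches and, in cells of another fate, are commonly held silent by Polycomb complexes, as textbook background. Polycomb marks were not measured in these libraries. The name "regulators of other lineages" covers the members only in part, because 8 of the 56 are best known from the forebrain (Lhx1, Lhx5, Lhx8, Lhx9, Nkx2-4, Pax6, Six3 and Six6) and Nkx6-2 is known from myelinating oligodendrocytes.

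Peaks of DNase cutting were called by the authors in each library alone. A smaller list, here the narrow peaks, held 40705 peaks in replicate 1 and 39508 in replicate 2, and a larger, more permissive list held 71210 and 72217. Each peak has a deposited signal value, called its strength, whose scaling is not given, and the number of reads is not given either. Markers of cell types and tissues gave a mixed picture. Of 5 excitatory neuron genes 4 had a narrow promoter peak in both libraries, and the 3 inhibitory neuron genes had promoter peaks of at least the larger list, while none of 2 liver, 2 heart and 2 erythroid genes had a promoter peak of either list. All 4 astrocyte genes had a promoter peak, with Slc1a2 and Gfap open, but Aqp4 had only one of 0.352 in the larger list of replicate 2. Of 3 oligodendrocyte genes Mbp and Mog had one of the larger list in both libraries and Mag had none. The excitatory marker Slc17a7 and the 3 microglial genes had none, and of 3 endothelial genes Flt1 alone had one, in replicate 2. Of 2 muscle genes Ckm was open and Acta1 closed, in the sense defined next. Over all autosomal protein-coding genes 56.0% were open and 34.4% closed, so an open marker alone says little about the tissue.

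A gene is called open where a narrow peak in both libraries overlapped 1 kb on either side of any of its annotated transcript starts, and closed where neither list had such a peak in either library. The rest are called between. Of the 56 members 4 were open, Pax6, Lhx4, Pax5 and Six4, which is 7.14%, against 56.0% of all autosomal protein-coding genes. The larger peak list gave 12 members with a promoter peak in both libraries, or 21.4%, against 62.0% of all genes. Closed members numbered 35, or 62.5%, against 34.4% of all genes, and between members 17, or 30.4%, against 9.62%. By single library, 6 members (10.7%) had a narrow promoter peak in replicate 1 and 9 (16.1%) in replicate 2, against 58.0% and 58.2% of all genes. Opening in a few cells and weak opening in many cells cannot be told apart in whole tissue.

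**Figure D1:**
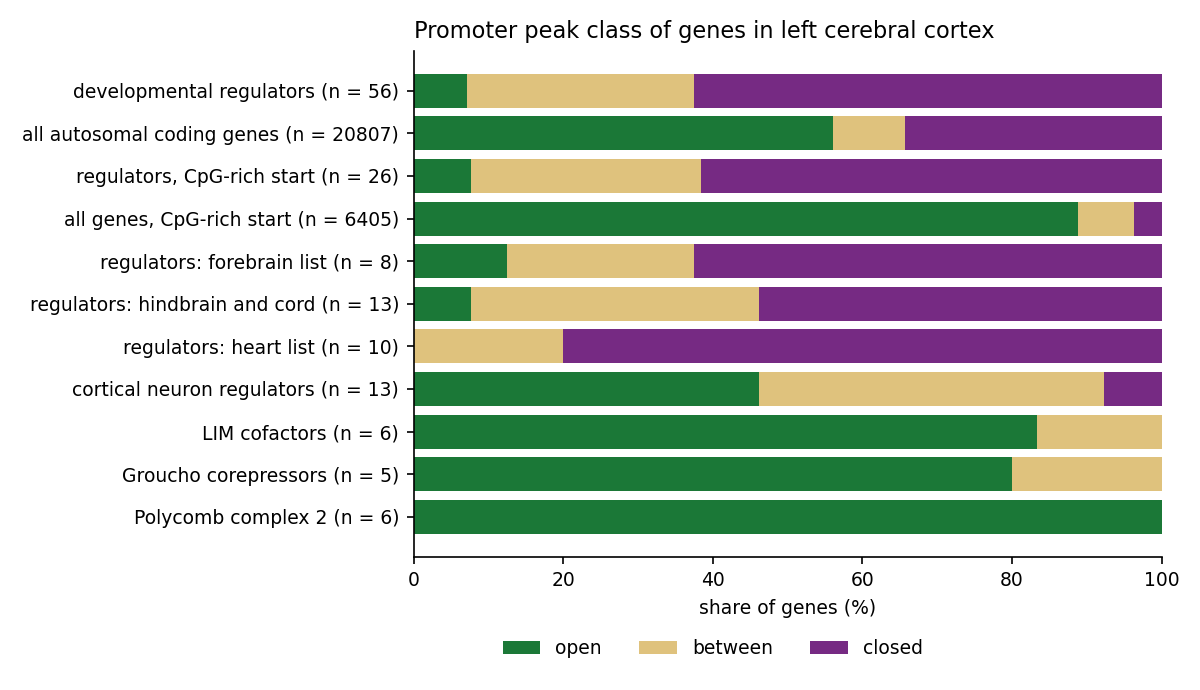
Each bar divides a set of genes into open (green), between (sand) and closed (purple), as a share of genes in percent. The 56 members have 4 open genes, the bar of all genes is 56.0% green, and the 6 Polycomb complex genes are all open.

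Of the members with the 5 strongest promoter peaks, Pax6 and Six4 were open, and Tbx6, Six5 and Nkx6-2 were between. The sequences under these peaks are printed here. Each is the stretch present in both libraries, taken from the GRCm38.p6 reference as RefSeq gives it, on the strand of the gene, and capitals mark bases inside a footprint (a short stretch protected from cutting) of both libraries. Untranslated regions were cut to 30 bases or left out, so the Pax6, Nkx6-2 and Six4 stretches are shorter than the peaks. The Tbx6 stretch is chr7:126780738-126780863 (plus strand), the Six5 stretch chr7:19094001-19094280 (plus), the Pax6 stretch chr2:105675371-105675400 (plus), the Nkx6-2 stretch chr7:139582798-139582836 (minus) and the Six4 stretch chr12:73113457-73113620 (minus).
Tbx6: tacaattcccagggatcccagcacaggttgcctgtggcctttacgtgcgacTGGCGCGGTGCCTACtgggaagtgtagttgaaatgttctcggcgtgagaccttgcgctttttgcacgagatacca
Six5: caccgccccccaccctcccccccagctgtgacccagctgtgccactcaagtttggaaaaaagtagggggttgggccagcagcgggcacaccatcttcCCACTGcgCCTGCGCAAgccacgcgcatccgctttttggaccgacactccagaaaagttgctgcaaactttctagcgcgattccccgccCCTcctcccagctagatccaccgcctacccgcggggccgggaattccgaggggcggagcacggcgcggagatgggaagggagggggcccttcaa
Pax6: atcggctggcgcGAGGCccCggcgctgctt
Nkx6-2: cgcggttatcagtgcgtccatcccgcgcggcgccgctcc
Six4: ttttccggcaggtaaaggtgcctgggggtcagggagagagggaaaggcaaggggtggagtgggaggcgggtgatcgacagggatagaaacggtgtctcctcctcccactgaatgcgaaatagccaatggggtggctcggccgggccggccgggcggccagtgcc

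The Tbx6 stretch held 1 protected run of 15 bases in both libraries and 8 CpG dinucleotides, and the Six5 stretch held 18 bases protected in both libraries and 20 CpG dinucleotides. The printed stretches of Nkx6-2 and Six4 held no footprint in either library. The GC-box motif GGGCGG (either strand), bound by SP and KLF factors, was present in the Six5 and Six4 stretches. It was in 4 of 8 narrow promoter peaks of the members in replicate 1 (50%, exact 95% interval 15.7 to 84.3%) and 8 of 16 in replicate 2 (50%, 24.7 to 75.3%), against 53.5% and 52.2% of all narrow promoter peaks. The members' share in narrow peaks lies near the background, but their peaks were shorter. Median lengths were 198.5 bp and 120 bp in replicates 1 and 2, against 240 bp and 260 bp for all. In the larger list the motif was in 8 of 23 (34.8%, 16.4 to 57.3%) and 16 of 41 (39.0%, 24.2 to 55.5%). All promoter peaks of that list had 47.7% and 46.4%. Shares were not adjusted for length. The intervals cover counting error only and treat peaks of the same gene as independent.

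Pax6, a paired-box factor of cortical progenitors, eye and pancreatic islets, had the strongest peak among the open members. Its narrow promoter peak had a strength of 1.45 in replicate 1 and 1.47 in replicate 2, a mean of 1.46 ± 0.016 (SD, n = 2 libraries). The peak did not lie at the first start of the gene (chr2:105668900-105697364) but about 6.5 kb inside it: its midpoint was 6463 bp downstream of the 5′ end in replicate 1 and 6491 bp in replicate 2, within 70 bp of an internal start and in the annotated untranslated part of the transcript. Pax6 has 24 annotated starts, more than any other member, so its promoter windows cover more DNA. It held 3 promoter footprints in replicate 1 and 5 in replicate 2, and no distal peak of either list lay within 50 kb of its starts. At the 5′ end no base reached an FDR (false discovery rate of the DNase signal) under 0.05 in either library.

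Lhx4, a LIM-homeodomain factor of motor neurons and pituitary, had strengths of 0.644 in replicate 1 and 0.898 in replicate 2, a mean of 0.771 ± 0.179 (SD, n = 2 libraries). These peaks lay in an intron, 10514 bp and 10578 bp downstream of the 5′ end, and 857 bp and 921 bp beyond an internal start. With windows of 500 bp Lhx4 was no longer open. Pax5, which commits lymphocytes to the B lineage and also patterns the midbrain-hindbrain boundary, had its strongest narrow promoter peak at 0.682 in replicate 1 and 0.768 in replicate 2 (mean 0.725 ± 0.061, SD, n = 2 libraries), but at different places. The peak shared by both libraries had 0.682 and 0.759 and lay 5957 bp and 6010 bp downstream of the 5′ end, in an intron that overlaps an exon of 5730488B01Rik. The strongest peak of replicate 2 stood 8168 bp downstream, where replicate 1 had a peak of 0.673 in the larger list only.

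Six4, a homeobox factor of muscle and sensory placodes, was the only member open at the 5′ end of its gene record in both libraries, or 1.79% of members, against 51.6% of all genes. The peak at its start (midpoint at -33 bp in replicate 1 and -34 bp in replicate 2) had strengths of 0.815 and 0.778 in replicates 1 and 2 (mean 0.796 ± 0.026, SD, n = 2 libraries). Further narrow peaks of 0.540 and 0.578 in replicate 1 and of 0.667 in replicate 2 covered its coding sequence downstream. In the 2001 bp around the 5′ end, 853 bp in replicate 1 and 955 bp in replicate 2 had an FDR under 0.05. Both libraries thus showed the Six4 start open, with a small difference between them.

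**Figure D2:**
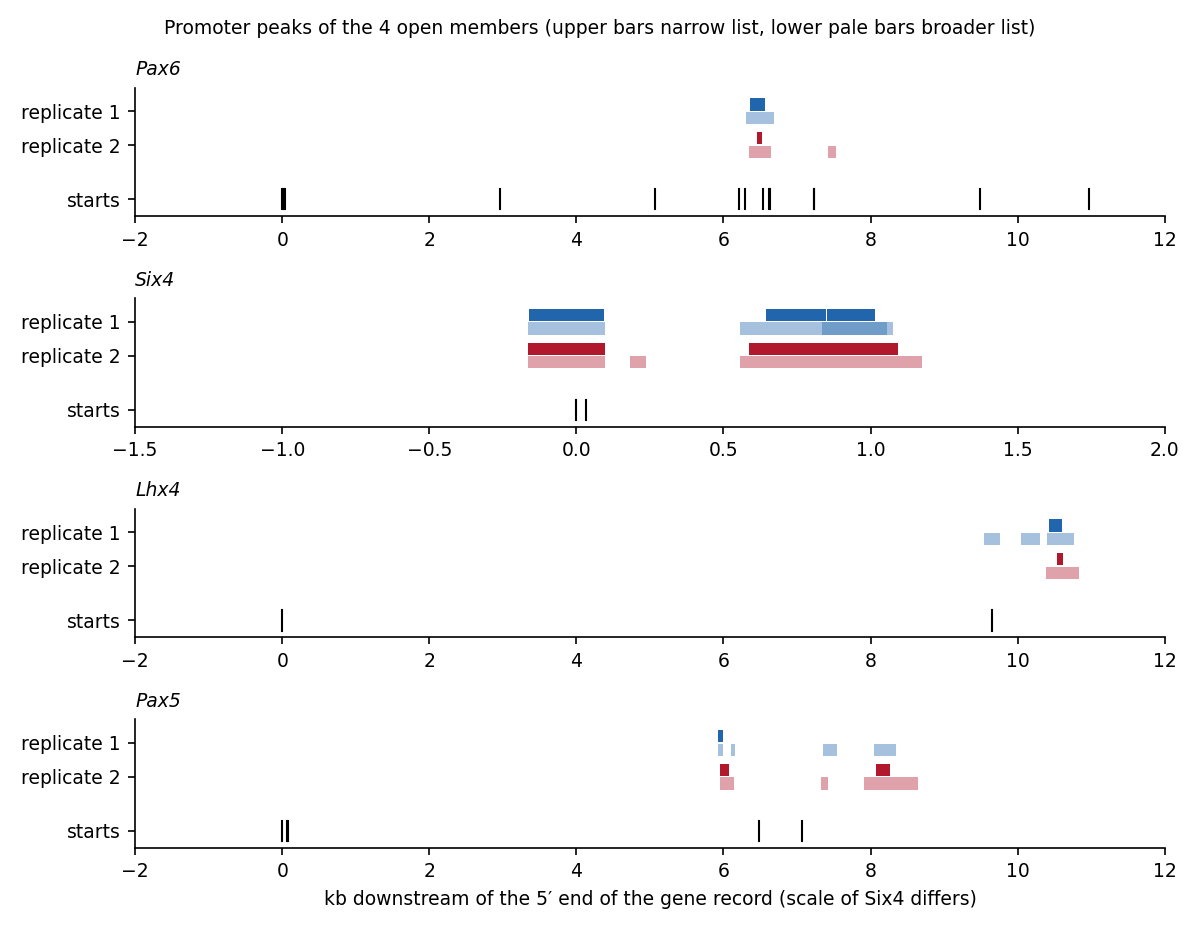
Bars are promoter peaks of Pax6, Six4, Lhx4 and Pax5 in replicate 1 (blue) and replicate 2 (red), drawn by distance in kb from the 5′ end of the gene record, with annotated starts as ticks. Six4 has a peak at distance 0, while the peaks of the other 3 genes lie about 6 kb or more inside the gene.

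Even where members were open, the peaks were weak for promoters. The median strength over the 4 open members was 0.784, against 2.63 over the 11656 open genes. By library the medians were 0.749 in replicate 1 and 0.838 in replicate 2, with an SD of 0.063 between libraries, against 2.80 and 2.44 over all open genes. Of the 4, Pax6 alone was above the median strength of the narrow list in both libraries.

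The 17 between members fall into genes with a promoter peak in both libraries but not always in the narrow list, and genes with one in a single library. Six5, which lies just downstream of the kinase gene Dmpk and is active in many tissues, had strengths of 1.92 in replicate 1 (narrow) and 1.30 in replicate 2 (larger list only). The peak stood about 0.5 kb upstream of its start. Tbx6, needed for presomitic mesoderm in the embryo, had strengths of 1.77 in replicate 1 (larger list only) and 1.85 in replicate 2 (narrow), with midpoints at -683 bp and -703 bp from its start, between Ypel3 and Tbx6. These 2 genes had higher strengths than at least 3 of the 4 open members in both libraries, so the class does not order the members by strength.

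Nkx6-2, a homeobox factor of myelinating oligodendrocytes, had strengths of 0.862 in replicate 1 (larger list only) and 0.926 in replicate 2 (narrow), at its start. Lhx3, which acts with Lhx4 in motor neurons and pituitary, had 0.644 (larger list only) and 0.926 (narrow) in replicates 1 and 2, with the stronger peak at its own start in both. Thus both genes had a peak in each library that missed the narrow list in replicate 1. Tbx3, a conduction-system and limb factor, had larger-list peaks of 0.607 and 0.907, Irx6, a retina and spinal cord factor, of 0.417 and 0.454, and Nkx2-9, a floor plate factor, of 0.284 and 0.398, in replicates 1 and 2, and no narrow peak.

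Another 9 between members had a promoter peak in one library only. Replicate 2 alone gave peaks of the larger list at 7 members, among them Gata6, Irx3, Lhx1, Lhx8, Pax2 and Tbx5, and replicate 1 alone at 2, Pax9 and Tbx15. Over all genes replicate 2 alone gave 425 such genes (2.04%), and replicate 1 alone 322 (1.55%). For the narrow list, replicate 2 alone gave 5 members (Irx3, Lhx3, Lhx8, Nkx6-2 and Tbx6), or 8.93%, against 2.18% of all genes, and replicate 1 alone gave 2, among them Six5, or 3.57%, against 2.03%. These are small counts, and no test of their difference was made.

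Lhx8, a factor of cholinergic neurons in the basal forebrain, had the largest gap between libraries among the members in bp under FDR 0.05. Replicate 1 had no promoter peak, no promoter footprint and 0 bp under FDR 0.05 around the 5′ end. Replicate 2 had 3 narrow promoter peaks of up to 0.593, 12 promoter footprints and 1089 bp under FDR 0.05. Irx3, a spinal cord and caudal diencephalon factor, likewise had 0 bp in replicate 1 and 763 bp in replicate 2, and 0 distal narrow peaks in replicate 1 and 5 in replicate 2. Nkx6-2 had 55 bp in replicate 1 and 803 bp in replicate 2. The mean over libraries of these genes therefore says little about either library.

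**Figure D3:**
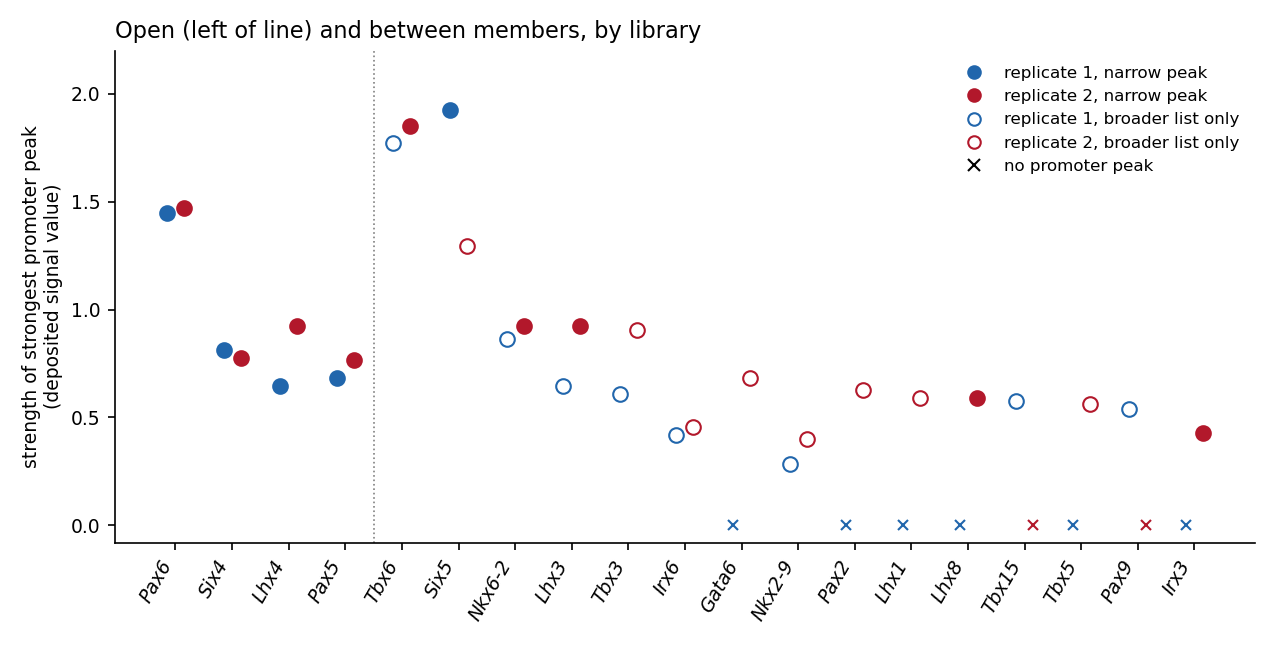
Strength of the strongest promoter peak of the larger list for the 4 open members (left of the dotted line) and 15 of the 17 between members, in replicate 1 (blue) and replicate 2 (red). Filled points also had a narrow peak, and crosses mark libraries without any promoter peak; Tbx6 and Six5 stand highest at up to 1.92.

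By the lineage each member is best known for, the forebrain list of 8 had 1 open gene (Pax6), 2 between genes (Lhx1 and Lhx8) and 5 closed genes (Lhx5, Lhx9, Nkx2-4, Six3 and Six6). The hindbrain and spinal cord list of 13 had 1 open gene (Lhx4), 5 between genes and 7 closed genes (Irx1, Irx2, Irx5, Nkx1-1, Nkx6-1, Pax3 and Pax7). Of 10 heart genes none was open, Tbx3 and Tbx5 were between, and Gata4, Gata5, Irx4, Nkx2-5, Nkx2-6, Tbx1, Tbx2 and Tbx20 were closed. Among 6 endoderm and gut genes, 2 were between, among them Gata6, and Nkx2-3, Nkx6-3, Pax4 and Pax8 were closed. The skeleton and muscle list of 6 had Six4 open, 3 between genes with Pax9 and Tbx15 among them, and Nkx3-2 and Pax1 closed. Of 4 blood genes Pax5 was open, and Gata2, Gata3 and Tbx21 were closed. Closed too were Nkx1-2 of the early embryo, Six2 of the kidney, Tbx4 of the hindlimb, Tbx18 of pericytes, Tbx19 of pituitary corticotrophs and Tbx10. The open share of the forebrain list was 12.5%, against 56.0% of all genes.

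The DNA around the starts of the members was not that of a typical closed gene. A start was called CpG-rich where the 2001 bp around the 5′ end had a CpG observed/expected ratio of at least 0.6 and a GC content of at least 50%. Of the 56 members 26 were CpG-rich (46.4%), against 30.8% of all genes. Of these 26, 2 were open (Pax6 and Six4), 8 between and 16 closed, so 7.69% were open and 61.5% closed. Pax6 was open at an internal start, outside the window in which CpG was measured. Among all 6405 CpG-rich genes 88.8% were open and 3.65% closed. The 30 members that were not CpG-rich had a similar make-up, with 6.67% open and 63.3% closed, against 41.5% and 48.0% of all genes without a CpG-rich start. The 234 closed CpG-rich genes of the autosomes include these 16 members. Tbx18, a factor of pericytes and smooth muscle, had the highest CpG ratio of all members, 0.943, followed by Nkx2-4 with 0.915, and both were closed.

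Open and closed members overlapped in CpG content at the 5′ end. In Pax6, Lhx4 and Pax5 that window held no peak and no base under FDR 0.05. Their ratios therefore do not describe the DNA under their peaks, which lay at internal starts. The median CpG ratio was 0.555 over the 4 open members and 0.568 over the 35 closed members, with ranges of 0.137 to 0.664 and 0.107 to 0.943, so the closed range encloses the open one. Over all genes, the median was 0.627 in open genes and 0.173 in closed genes. By FDR, 39 of the 56 members had no base under 0.05 in the 2001 bp at the 5′ end in either library (69.6%), against 38.0% of all genes. Among closed members, where the lack of a peak nearly fixes this, it was 34 of 35 (97.1%), close to the 98.01% (7007 of 7149) of all closed genes, and Irx5 had 17 bp in replicate 2.

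**Figure D4:**
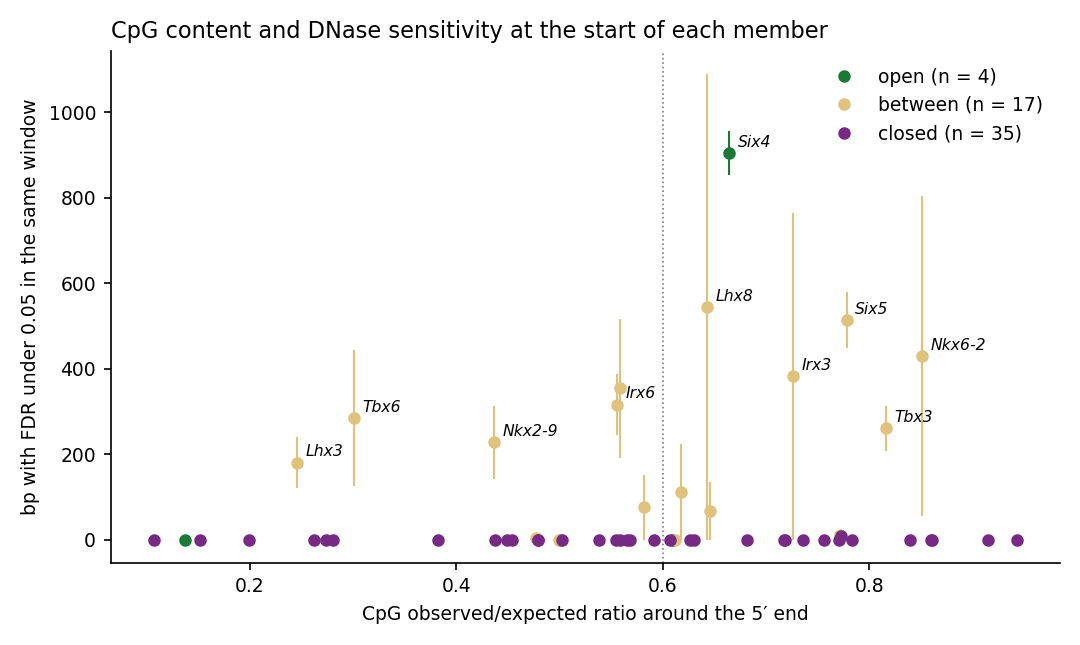
Each point is a member, with its CpG observed/expected ratio on the x axis and the number of bp under FDR 0.05 in the 2001 bp at its 5′ end on the y axis (point: mean of 2 libraries; line: from the lower to the higher library). Closed members (purple) lie at or near 0 bp across the whole range of CpG ratios, Six4 stands at 904 bp, and Lhx8, Irx3 and Nkx6-2 have long lines.

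Promoter footprints largely followed the classes. The median member had 0 promoter footprints in each library, against 4 for all genes, and 38 of 56 members (67.9%) had none in either library, against 35.9% of all genes. All 35 closed members had none in either library, as did 7148 of 7149 closed genes. The counts over all members thus mostly restate the share of closed members. Among the open members the median was 3 in replicate 1 and 4.5 in replicate 2, against 7 and 8 over all open genes.

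Away from the promoters the members had about as many peaks as other genes. Distal narrow peaks, with a midpoint over 1 kb from any annotated start and within 50 kb of a start of the member, had a median of 1 per member in each library, the same as over all genes. No distal narrow peak in either library was found for 19 members (33.9%), against 32.2% of all genes. Closed members had a distal narrow peak in both libraries in 20 of 35 cases (57.1%), against 41.5% of all closed genes. Open members had a median of 0.5 such peaks in replicate 1 and 1.5 in replicate 2, against 1 in each library for closed members. The median member had 0 other protein-coding genes with a start within 50 kb, against 2 for all genes. The nearest narrow peak to a start of a member lay at a median distance of 18092 bp in replicate 1 and 17063 bp in replicate 2, against 26 bp and 33 bp for all genes. These distances include promoter peaks, so they largely restate the shares of open genes. Among closed members the medians were 18656 bp and 25233 bp, against 33583 bp and 36188 bp for all closed genes.

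In all, 57 different distal narrow peaks in replicate 1 and 58 in replicate 2 lay near members, and 40 sites were present in both libraries. That is 70.2% of those in replicate 1 and 69.0% of those in replicate 2, against 67.6% and 75.1% of all distal narrow peaks. The shared sites formed 41 gene-site pairs at 29 members. For 21 pairs, at 15 members, the member had the nearest coding start. Counted whether or not at the same site, 16 members (28.6%) had such a nearest distal narrow peak in both libraries. Over all genes the share was 30.3%. The strongest shared site stood 47.7 kb downstream of Nkx1-2, a caudal epiblast factor, with strengths of 5.22 and 3.72 in replicates 1 and 2, but it lies in an intron of Fgfr2 with the start of Oat nearer. The site at -27.2 kb from Tbx1, a pharyngeal arch factor, had 3.48 and 3.54 and lies 3.8 kb from a start of Gp1bb. A site near Gata4, a heart factor, stood 17.6 kb downstream of its nearest annotated start, an internal one, and 75712 bp downstream of its 5′ end, beyond the gene. It had 2.13 and 2.56 and lies 2.12 kb from a start of Neil2. Such sites are near a member without being closest to it.

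Sites closest to a member were found at several closed genes. In both libraries 11 of 35 closed members (31.4%) had a distal narrow peak closest to them, against 20.1% of all closed genes. The 3 intergenic sites printed here are the strongest sites closest to a member outside untranslated regions, chosen after their values were seen. The Tbx19 site (chr1:165132581-165132740, minus strand) stood 16.7 kb downstream of the nearest annotated start, an internal one, with strengths of 3.14 and 3.08 in replicates 1 and 2. Its midpoint was 28113 bp downstream of the Tbx19 5′ end in replicate 1, beyond the end of the gene. The Pax7 site (chr4:139858761-139858900, minus) stood at -25.3 kb with 2.32 and 3.26. The Nkx3-2 site (chr5:41768501-41768680, minus) stood at -4.08 kb with 2.28 and 3.30.
Tbx19: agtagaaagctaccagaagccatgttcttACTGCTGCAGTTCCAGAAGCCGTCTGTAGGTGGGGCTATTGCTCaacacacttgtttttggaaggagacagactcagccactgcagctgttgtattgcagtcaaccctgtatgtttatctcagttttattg
Pax7: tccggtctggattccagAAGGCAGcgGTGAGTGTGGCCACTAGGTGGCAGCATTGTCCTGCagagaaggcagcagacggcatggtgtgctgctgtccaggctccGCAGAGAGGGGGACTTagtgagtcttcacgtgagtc
Nkx3-2: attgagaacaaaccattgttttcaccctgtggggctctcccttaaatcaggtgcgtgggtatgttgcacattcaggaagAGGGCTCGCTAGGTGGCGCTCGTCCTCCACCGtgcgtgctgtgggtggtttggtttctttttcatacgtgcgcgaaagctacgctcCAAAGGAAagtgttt

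The Pax7 site held a match to the long consensus of CTCF, the insulator protein, and of the 40 shared sites it was the only one that did (2.5%, exact 95% interval 0.063 to 13.2%), against 1.44% of 13573 shared distal sites in the genome. The shorter core AGGNGGC (either strand), added after the data were seen, was in the Pax7 and Nkx3-2 stretches, inside their protected bases. The core was also in the printed Six5 promoter stretch, outside its protected bases. It was in 16 of the 40 shared sites (40%, 24.9 to 56.7%), against 32.9% of all shared distal sites. Among all distal narrow peaks of the members it was in 27 of 57 in replicate 1 (47.4%, 34.0 to 61.0%) and 24 of 58 in replicate 2 (41.4%, 28.6 to 55.1%), against 31.7% and 31.6% of all distal narrow peaks. In the larger list the shares were 39 of 102 in replicate 1 (38.2%, 28.8 to 48.4%) and 49 of 125 in replicate 2 (39.2%, 30.6 to 48.3%), against 26.2% and 25.3%. The background lies below the interval in 3 of these 4 comparisons by library and inside it for the narrow peaks of replicate 2 and the shared sites. No test was made, since the motif was added with the data in view, so the intervals only describe and decide nothing. In narrow promoter peaks of members the core was in 1 of 8 (12.5%, 0.316 to 52.7%) in replicate 1 and 1 of 16 (6.25%, 0.158 to 30.2%) in replicate 2. All narrow promoter peaks had 39.2% and 38.9%. In the larger list it was in 7 of 23 (30.4%, 13.2 to 52.9%) and 7 of 41 (17.1%, 7.15 to 32.1%), against 38.0% and 37.6%. The E-box CAGATG (either strand), bound by neuronal basic helix-loop-helix factors, was in 5 of 57 distal narrow peaks of the members in replicate 1 (8.77%, 2.91 to 19.3%) and 6 of 58 in replicate 2 (10.3%, 3.89 to 21.2%), against 3951 of 19730 (20.03%) and 3388 of 17764 (19.1%) of all distal narrow peaks. Among the 40 shared sites it was in 4 (10%, 2.79 to 23.7%), against 17.5%. In the larger list it was in 5 of 102 in replicate 1 (4.90%, 1.61 to 11.1%) and 16 of 125 in replicate 2 (12.8%, 7.497 to 19.95%), against 21.3% and 20.7%. The interval lies below the background in 3 of these 4 comparisons by library and includes it for the narrow peaks of replicate 2 and the shared sites. The peaks of the 2 libraries are mostly the same sites. The 2 lists of a library also share sites, so the 4 comparisons of each motif are not separate. The intervals also treat peaks of the same gene as independent. The E-box was 1 of 13 motifs searched before the core was added. For members, the distal narrow peaks had median lengths of 180 bp in replicate 1 and 169 bp in replicate 2. All distal narrow peaks had 180 bp in each library. Narrow promoter peaks of members were shorter than those of all genes, with medians of 198.5 bp and 120 bp in replicates 1 and 2. All narrow promoter peaks had 240 bp and 260 bp. Motif shares were not adjusted for length.

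Among closed members, Lhx5, Pax7 and Tbx10 had most distal narrow peaks, 3 in each library. Lhx5, a Cajal-Retzius and hypothalamus factor, had a site in its own untranslated region 9.21 kb downstream of its start with strengths of 2.80 and 2.67. Gata5, Nkx1-2, Nkx2-5, Six6 and Tbx19 followed with at least 2 in each library. Tbx10 has 8 coding neighbours within 50 kb and none of its sites was nearest to it, whereas Pax7 has 0 such neighbours and all 3 of its sites were nearest to it. No distal peak of either list was found for 10 members (17.9%), against 17.1% of all genes, namely Pax6, the between genes Gata6, Pax2 and Pax9, and the closed genes Gata3, Irx4, Lhx9, Pax1, Pax3 and Tbx20.

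**Figure D5:**
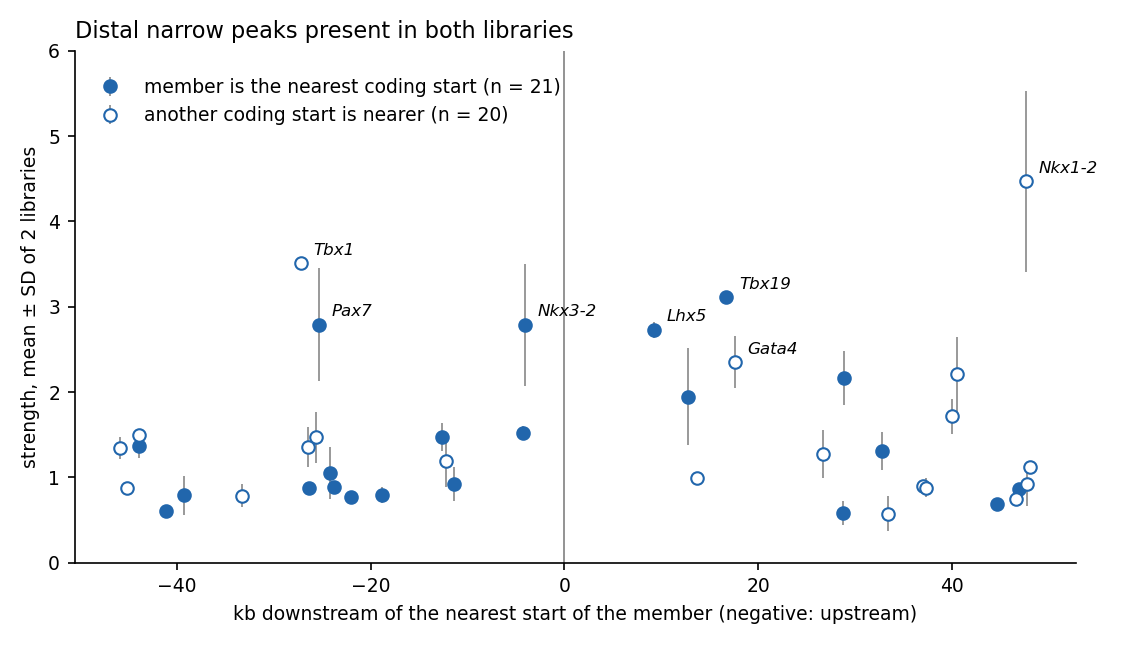
The 41 pairs of a member and a distal narrow peak found in both libraries, by distance from the nearest start of the member in kb and by strength (mean ± SD of 2 libraries); filled points have the member as the nearest coding start. The strongest filled points are Tbx19, Pax7, Nkx3-2 and Lhx5, all closed members.

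The partners of these factors were mostly open. Of 6 LIM cofactors, which bridge or block Lhx proteins, 5 were open (Ldb1, Ldb2, Lmo1, Lmo2 and Lmo4) and Lmo3 was between. Of 5 Groucho corepressors 4 were open, with mean strengths of up to 5.97 ± 1.35 at Tle4 (SD, n = 2 libraries). Both GATA cofactors, Zfpm1 and Zfpm2, and all 6 autosomal genes of Polycomb repressive complex 2 on the list were open. The partners of sine oculis proteins were mixed: Eya1 and Eya3 were open, Eya4 and Dach1 between, and Eya2 closed. Of 13 regulators of cortical neurons 6 were open, among them Pou3f3, Pou3f2, Cux1 and Neurod6, 6 were between and 1 was closed (Fezf2). Among 4 other T-box genes, Tbr1, an excitatory neuron factor, was open with a mean strength of 1.04 ± 0.109 (SD, n = 2 libraries). Mga was open as well, and Eomes and T were closed, so 50% of these genes were open. These lists had shares of open genes of 100% for Polycomb, 83.3% for LIM cofactors and 46.2% for cortical regulators, against 56.0% of all genes.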

How the data were processed

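The authors called peaks on each library alone and deposited 2 lists per library, per the notes deposited with the files; no source used here gives the peak caller, the aligner or the read depth. The deposited signal value of each peak (strength) was used as it stands. The deposited table of FDR values (a kind of q-value) lists only values under 0.05. Footprints were deposited as intervals.

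Python 3.11.15, pandas 2.3.3, numpy 2.4.6 and pysam 0.24.0 were used. Peaks were joined to genes by at least 1 bp of overlap with 1000 bp on either side of any GENCODE M21 start. Distal peaks were placed by midpoint, so a peak overlapping a window may count as both. The procedure recovered planted peaks when tested on simulated data. Members and lists, the rule of classes and the motifs were chosen with earlier results of these data known, and the CpG class, its alternatives and the AGGNGGC motif after these data were seen. Values of some named genes are not reported here. Open members, members whose libraries differ, and closed members with most distal peaks in the library with fewer are described. Genes on chromosome X were left out. Animals are hybrids, and alleles could not be separated. Alternative windows, lists, filters and single libraries were tried.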

Additional observations from a re-analysis of the deposited data

How the results depend on the processing

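The number of open members was 4. It was 1 with the 5′ end of the gene record only (Six4), 1 with the strongest 50% of peaks (Pax6) and 12 with the larger list. It was 3 with 500 bp windows and 5 with wider windows, which added Irx5. From single libraries it ranged from 6 to 9. The larger list gave 12 members, 5 with the strongest 50% of peaks, and 14 to 19 from single libraries. The forebrain list had 1 open gene, 0 with the 5′ end only, and 1 to 2 from single libraries. The median strength of open members was 0.784, 1.46 with the strongest 50% (Pax6 alone), and 0.839 to 0.898 from single libraries. Distal narrow peaks per member had a median of 1. It was 0 within 10 kb, 2.5 within 100 kb, 2 with the larger list, 1.5 with only own starts left out, 0.25 with the member nearest and 0 with the strongest 50% of peaks. Open minus closed members, the median of distal peaks differed by 0, by -1.25 within 100 kb, by 0.75 with the larger list, and by -0.5 to 0.5 from single libraries. Their CpG ratio differed by -0.013, by -0.063 in 500 bp windows, and by -0.015 to 0.042 from single libraries, so its sign turned with the classes of replicate 2 alone. CpG-rich closed members numbered 16, with 9 at a ratio of at least 0.75, 24 with 500 bp windows and 17 to 20 from single libraries. In these comparisons 53 of 74 alternatives stayed close to the value given, 1 changed sign, and the cause of the others was not tested. Close meant within 1.5-fold for a count and within the SD between libraries for other values. Some could hardly move, such as the median of 0 promoter footprints, so the tally is a loose guide. No paired analysis was possible because there is 1 group. Strengths of single libraries rest on unknown depth.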

Other observations

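The 4 genes that the rule set aside were examined in the same way. Lhx2, a LIM-homeodomain factor of cortical progenitors, was between, with promoter peak strengths of 1.58 in replicate 1 (narrow) and 1.55 in replicate 2 (larger list only). Lhx6, a factor of cortical interneurons, and Nkx2-1 and Nkx2-2, of ventral forebrain and of oligodendrocyte precursors, were closed. Nkx2-2 had a distal narrow peak near its start with strengths of 2.29 in replicate 1 and 3.13 in replicate 2, and Nkx2-1 had one with 1.61 and 1.44.

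In replicate 2 the Irx3 and Irx5 neighbourhoods on chromosome 8 held more peaks of the larger list than in replicate 1. Irx3 had 1 distal peak of the larger list in replicate 1 and 9 in replicate 2, and Irx5 had 0 and 7. Both members lie in the Iroquois cluster with Irx6, which had 1 in each library. Irx5 also had a narrow peak 1325 bp from an annotated start in each library. That narrow peak lay outside the promoter window and was not counted as distal, so the 0 for Irx5 in replicate 1 leaves it out.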
